A study of Mus musculus with 2 samples.

Results

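The cytosolic ribosomal proteins are the protein subunits of the ribosome outside the mitochondrion, and their genes were read by symbol from the 10x Visium count tables of mouse liver. A gene was a member when its symbol was Rpl or Rps with a number and at most 1 closing letter a, x or l, or was Rplp0, Rplp1, Rplp2 or Rpsa. This gave 80 of 32285 genes, 49 of the large subunit and 31 of the small subunit. Of these, 77 had at least 1000 UMIs over both sections and were used for ratios of single genes. The other 3 are paralogs of common subunits. Rpl10l had 0 UMIs in both sections, Rpl39l had 2 UMIs in NCD and 3 in HFD, and Rpl3l had 4 and 9, so no ratio is given for them.

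The ribosome joins a small subunit, which reads the mRNA, to a large subunit, which forms the peptide bond, and each subunit carries most of its proteins in a single copy. The mRNAs of these genes begin with a C followed by a run of C and T bases, the 5′ terminal oligopyrimidine tract. Through this tract mTORC1 and Larp1 control their translation. In liver they belong to the most abundant mRNAs of the hepatocyte beside those for secreted plasma proteins.

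The 2 sections came from male C57BL/6J mice that were 5 weeks old on arrival, were acclimated for 1 week, and were fed a normal diet (NCD) or a high-fat diet (HFD) for 14 weeks. Both then received distilled water by mouth for 8 weeks, and each section of 10 µm came from 1 mouse. In this assay RNA is captured on an array of barcoded spots that each take in several cells, and a random tag, the UMI, lets copies of 1 molecule be counted as 1. With 1 section per diet, diet, animal, section and slide cannot be told apart, no test was possible, and all 95% intervals cover counting error only.

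Tissue covered 3692 spots in NCD, with a median of 4188 UMIs, and 3594 spots in HFD, with a median of 18549. Both sections share 3173 barcodes, which name positions on the array and not cells. The labels name the cells as hematopoietic or immune, but the 8 hepatocyte markers, Alb among them, made up 119793 CPM in NCD and 137523 CPM in HFD, where CPM is the UMIs of a gene or list for every 1000000 UMIs of the spots summed. The 6 genes of hematopoietic stem cells summed to 26.5 and 37.6 CPM. Libraries also differed in other RNA. Red blood cell markers had 6738 CPM in NCD and 1292 CPM in HFD, the mitochondrial genome took 8.51% and 5.64% of UMIs, and spots off tissue held 63814 CPM of ribosomal protein mRNA in NCD and 50573 CPM in HFD.

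The starts of a few members are shown to make the common promoter layout visible, with the longest run of C and T near the annotated start in capitals. Runs were cut where the search ended, 20 bases before and 50 bases after the start. Rpl37, Rpl38 and Rps28 had the lowest ratios of HFD to NCD, Rps19 and Rpl10 had the highest, Rps6 is the substrate of the S6 kinases downstream of mTORC1, and Rpl11 is a regulator of p53. The windows are from RefSeq on GRCm38.p6.
Rpl37, chr15:5116631-5116660, plus strand: ggcgggggtgCTTTCTCTTCCggtctcttt
Rpl38, chr11:114668568-114668597, plus strand: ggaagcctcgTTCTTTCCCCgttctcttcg
Rps28, chr17:33824566-33824595, minus strand: ctgtcccgaggatTCCTgggtaccgcgtgc
Rps19, chr7:24884612-24884641, plus strand: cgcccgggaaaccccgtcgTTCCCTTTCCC
Rpl10, chrX:74270836-74270865, plus strand: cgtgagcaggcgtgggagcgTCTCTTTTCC
Rps6, chr4:86857349-86857378, minus strand: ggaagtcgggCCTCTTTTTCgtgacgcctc
Rpl11, chr4:136053358-136053387, minus strand: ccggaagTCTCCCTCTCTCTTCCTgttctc

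Of the 80 members, 60 had such a window, with 72 windows in all because some genes have several starts. A run of at least 8 C or T bases between 20 bases before and 50 bases after the start was present in 68.1% of the members' windows and in 25.4% of the 32851 windows of all genes. Further motifs were searched on both strands over the whole window of 250 bases before to 50 after the start. The ETS-type motif CCGGAAG was present in 36.1% of the members' windows and in 8.86% of all, and AAGATGGCG, which holds the core of the YY1 motif, in 6.94% and 1.40%. Whether the run goes with the ratio of HFD to NCD was not tested, and a run in this stretch need not be the 5′ terminal tract. The 46 members with a run and enough UMIs had a median log2 ratio of HFD to NCD of -0.13, and the 11 without one had -0.25. Rps28, printed above, has no run of at least 8 bases in this stretch and was among the lowest. Its marked run of 4 bases is cut at the edge of the search. Rpl37 and Rpl38, the lowest of all, have runs of 11 and 10 bases.

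Ribosomal protein mRNA took a smaller part of the HFD library than of the NCD library. It made up 7.67% of UMIs in NCD (76701 CPM, 95% interval 76601 to 76802) and 6.64% in HFD (66384 CPM, 66325 to 66444). The difference was -0.21 on the log2 scale (-0.211 to -0.206), or 1.16-fold higher in NCD. Most genes with enough UMIs lay the other way, since the median of all 6422 such genes was 0.19 and the median of the 77 members was -0.16. The number of cells under a spot and the RNA in each cell cannot be told apart here, so these values are shares of the captured RNA. The difference shrank to -0.064 when each spot had the same weight and grew to -0.61 after the profile of the spots off tissue was subtracted. The spots off tissue were unlike in the sections. They had a median of 3383 UMIs in NCD, against 4188 over tissue, and of 1176 in HFD, against 18549. Mitochondrial genes took 9.69% of their UMIs in NCD and 26.7% in HFD, so values after this subtraction rest on unlike profiles.

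Large subunit mRNA differed slightly more between the sections than small subunit mRNA. The large subunit had 45868 CPM in NCD and 38951 CPM in HFD, a log2 ratio of -0.24, and the small subunit 30834 and 27433 CPM, a log2 ratio of -0.17. The ratio of large to small subunit UMIs was therefore 1.49 in NCD and 1.42 in HFD, a log2 difference of -0.067 (-0.072 to -0.063). Without the 4 members that departed most from the rest, described next, this difference was -0.010. Members of both subunits were spread over the whole range, with 12 of 46 large and 8 of 31 small subunit genes at least 20% lower in HFD, where 10.3% of all genes with enough UMIs were.

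Single members differed more than the sum. By their intervals 56 of the 77 were lower in HFD, 19 were higher and 2 held 0. Members have many UMIs and so narrow intervals, and the share of all genes by this measure was not counted. At least 20% lower were 20 members, against the 10.3% of all genes, and at least 25% higher were 2 members, where 37.6% of all genes were. Of the members, 71 lay below the median of all genes. Levels within each section kept their order, with a Spearman correlation of 0.94 over the 77 genes between sections. The sections share the type of array, the assay and each gene's capture efficiency. UMIs count 3′ ends, so a level is not divided by the length of the gene.

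**Figure D1:**
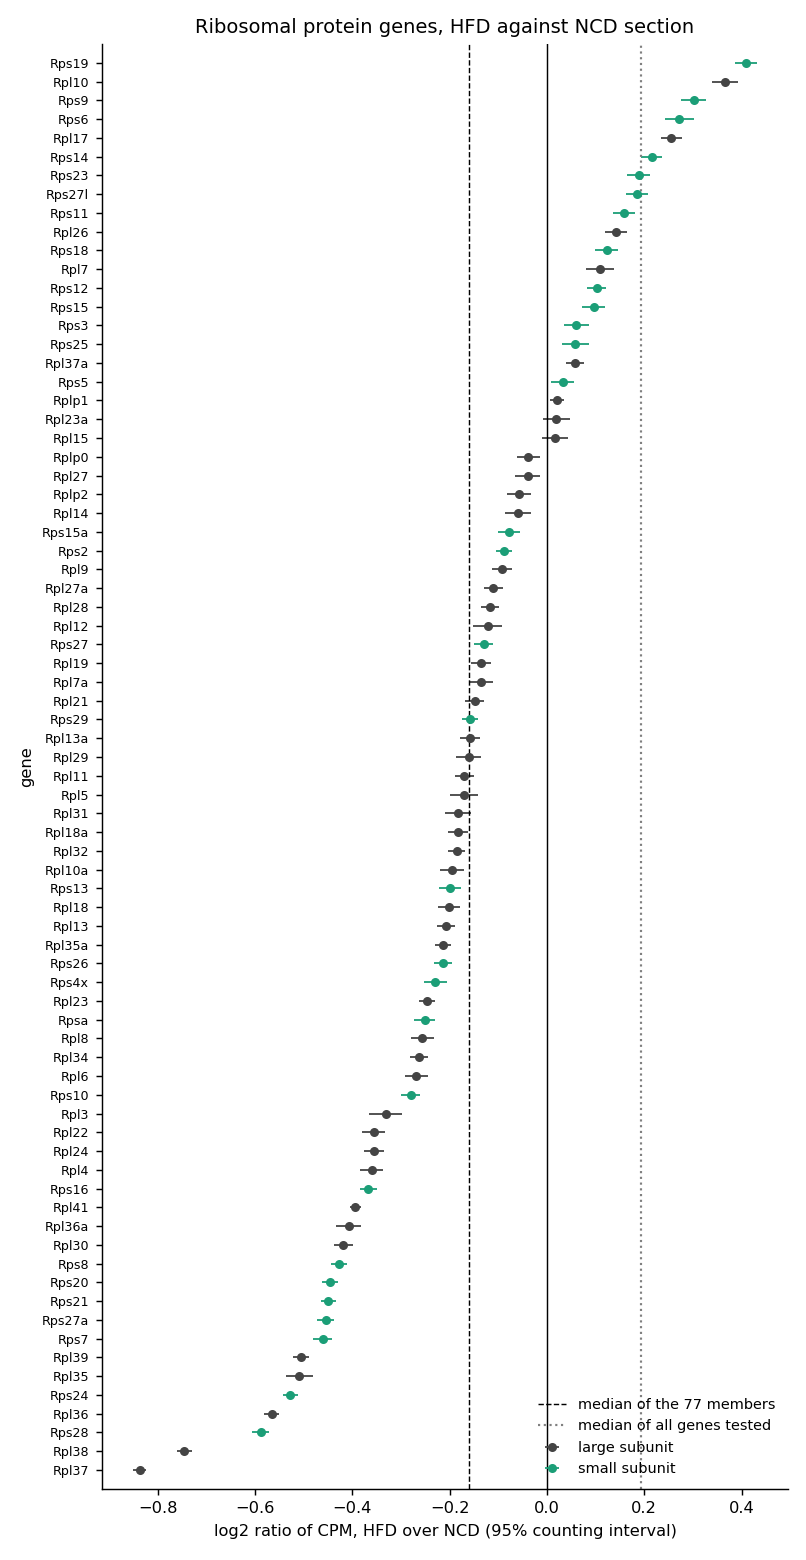
Log2 ratio of CPM, HFD over NCD (x axis), for 76 of the 77 members with at least 1000 UMIs (y axis, ordered by ratio), with 95% intervals for counting error and subunits in 2 colours. Rpl37 and Rpl38 stand at the low end with -0.84 and -0.74, Rps19 and Rpl10 at the high end with 0.41 and 0.37, and most points lie left of the dotted median of all genes at 0.19.

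The members that departed from the rest were 4, meaning that their whole interval lay over 0.5 from the median log2 ratio of the members. Rpl37, a small zinc-binding protein of the large subunit, had 2427 CPM in NCD and 1358 CPM in HFD, a log2 ratio of -0.84 (-0.851 to -0.823). Rpl38, a large subunit protein known for its part in the translation of Hox mRNAs in the embryo, had 2059 and 1229 CPM, a log2 ratio of -0.74. They were the most abundant members in NCD after Rpl41, and neither was among the 3 most abundant in HFD. Rps19, the small subunit protein most often mutated in Diamond-Blackfan anemia, went the other way, with 684 CPM in NCD and 908 CPM in HFD and a log2 ratio of 0.41 (0.386 to 0.432). Rpl10, which joins the large subunit late in its assembly, had 520 and 670 CPM, a log2 ratio of 0.37.

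These departures had the same direction at each depth of spots. Over 7 bins of UMIs per spot from 1000 up, the log2 ratio of HFD to NCD lay between -1.12 and -0.74 for Rpl37, between -0.88 and -0.73 for Rpl38, between 0.28 and 0.51 for Rps19, and between 0.21 and 0.35 for Rpl10. Rpl10 has a copy, Rpl10-ps3, with its own row, which had 84.1 CPM in NCD and 39.2 CPM in HFD, and the counting could split reads between both. Their sum had a log2 ratio of 0.23 (0.207 to 0.257), and Rpl10 alone was at -0.32 after the profile of the spots off tissue was subtracted. Its direction is therefore uncertain.

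Next lowest were Rps28 (1431 CPM in NCD and 952 in HFD), Rpl36 (1709 and 1155) and Rps24 (1807 and 1254), with log2 ratios of -0.59, -0.57 and -0.53. Rps28 and Rps24 are small subunit proteins and Rpl36 is one of the large subunit. Next highest were Rps9 (563 and 694 CPM), Rps6 (410 and 496) and Rpl17 (757 and 904), with log2 ratios of 0.30, 0.27 and 0.26. Rpl17 was at -0.01 after the spots off tissue were subtracted.

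The most abundant member in both sections was Rpl41, whose peptide is the shortest of the ribosome, with 3278 CPM in NCD and 2495 CPM in HFD. In HFD it was followed by Rplp1 with 1904 CPM and Rps2 with 1445 CPM, and these had 1877 and 1536 CPM in NCD. The least abundant of the 77 was Rpl3, which reaches close to the peptidyl transferase center, with 356 and 283 CPM. Rplp0, Rplp1 and Rplp2 form the stalk that binds elongation factors, and their log2 ratios of -0.04, 0.02 and -0.06 were all nearer to 0 than the median of the members.

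Members that are also known outside the ribosome had ratios on both sides of the members' median. Rpl5 and Rpl11, which bind Mdm2 when ribosome assembly is disturbed, had log2 ratios of -0.17 each, at 467 and 415 CPM for Rpl5 and 1075 and 956 CPM for Rpl11. Rpsa, also known as the laminin receptor, was at -0.25 and X-linked Rps4x at -0.23. Rpl22 was at -0.36 and its paralog Rpl22l1, outside the symbol rule, was at -0.65, with 256 CPM in NCD and 163 CPM in HFD. Rps27l, a paralog of Rps27 that p53 can induce, had 733 CPM in NCD and 833 CPM in HFD and a log2 ratio of 0.19 (0.163 to 0.208), while Rps27 had 1034 and 945 CPM and a ratio of -0.13. Rpl39, with 1432 and 1009 CPM, was at -0.51, and its paralog Rpl39l was near absent.

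Genes that encode a fusion protein lay in the lower part of the range. Rps27a, which encodes ubiquitin joined to a small subunit protein, had 1477 CPM in NCD and 1078 CPM in HFD, a log2 ratio of -0.45. Fau, a fusion of a ubiquitin-like protein with a small subunit protein, falls outside the symbol rule and had 2192 and 1546 CPM and a log2 ratio of -0.50. Also outside it, Rps3a1 was at -0.30 and Rack1, the signalling scaffold of the small subunit, at -0.21. With Fau, Rps3a1 and Rack1 added, the family had 80292 CPM in NCD and 69090 CPM in HFD, a log2 ratio of -0.22.

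Short genes held most of the members that were at least 20% lower in HFD. Among the 26 members with the shortest coding sequences (75 to 399 nucleotides), 13 were at least 20% lower and the median log2 ratio was -0.31. Of the 25 of middle length (405 to 552 nucleotides) 3 were, with a median of -0.12, and of the 26 longest (564 to 1257 nucleotides) 4 were, with a median of -0.15. Over all genes with enough UMIs, of any length, 10.3% were at least 20% lower. The Spearman correlation of log2 ratio and coding length over the 77 genes, all measured in the same 2 libraries, was 0.24, so coding length orders the members only weakly. Between log2 ratio and CPM in NCD, which also enters the ratio, it was -0.55. Short members were also the more abundant ones, with -0.48 between CPM in NCD and coding length. Rps29 and Rpl37a are short genes that lay above the median of the short group.

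**Figure D2:**
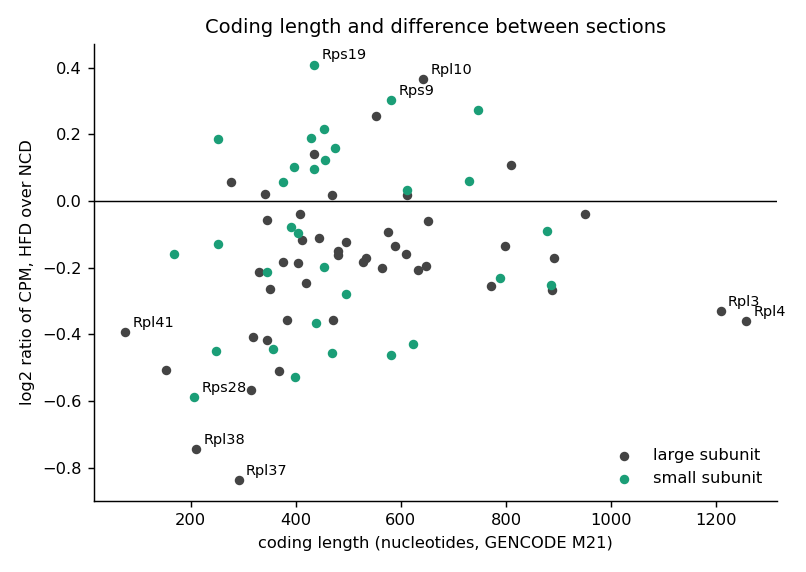
Coding length in nucleotides (x axis) against the log2 ratio of CPM, HFD over NCD (y axis), for the 77 members, 1 point per gene, coloured by subunit. Short genes such as Rpl41, Rps28, Rpl38 and Rpl37 fill the lower left, but short genes near 0 and long genes below 0, such as Rpl3 and Rpl4, are also present.

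Other parts of the translation machinery had medians between 0.02 and 0.13, nearer to 0 than the median of all genes at 0.19. In these lists the shares of genes are set beside the 37.6% of all genes that were at least 25% higher and the 10.3% that were at least 20% lower. The list of translation factors has 27 genes and also holds some that are not such factors, among them Naca, Tpt1 and Hnrnpa1. Of the 27 genes 3 were at least 25% higher in HFD and 3, with Naca among them, at least 20% lower. The median log2 ratio was 0.02. Eef1a1, which brings aminoacyl tRNA to the ribosome, had 3206 CPM in NCD and 3234 CPM in HFD, and Eef2, which moves the ribosome along the mRNA, had 740 and 590 CPM. Of 31 ribosome biogenesis genes 20 had enough UMIs, of which 4 were higher and 2 lower, with a median of 0.13. The 2 lower were the nucleolar proteins Ncl (90.0 and 68.1 CPM) and Fbl (36.5 and 28.1 CPM). The 78 ribosomal proteins of the mitochondrion, which are encoded in the nucleus, had a median of 0.10, with 13 higher and 3 lower.

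Regulators of the mTORC1 pathway, which controls the translation of ribosomal protein mRNA, had a median log2 ratio of 0.17, close to the 0.19 of all genes. Of 12 with enough UMIs 6 were higher in HFD and 1 lower, where 37.6% and 10.3% of all genes were. Eif4ebp3, a repressor of the cap-binding protein, had 136 CPM in NCD and 21.9 CPM in HFD, a log2 ratio of -2.64. Ddit4, an inhibitor of mTORC1, had 5.65 and 17.2 CPM, a log2 ratio of 1.61, and Mtor itself 18.6 and 32.4 CPM, a ratio of 0.81. Larp1, which binds the 5′ terminal tract, had 50.6 and 48.6 CPM, and its interval held 0. These are mRNA levels and say nothing on the activity of the kinase.

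Shallow spots held a smaller share of ribosomal protein mRNA than deep ones in both sections. In NCD the level was 56826 CPM in spots under 1000 UMIs, 81719 CPM in those of 15000 to 20000, and 79218 CPM from 30000 up. In HFD it was 52647 CPM in spots of 1000 to 3000 UMIs and 68651 CPM from 30000 up. HFD was lower than NCD in all 7 bins with enough spots of both, by -0.20 to -0.36 on the log2 scale, with a mean within bins of -0.28.

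**Figure D3:**
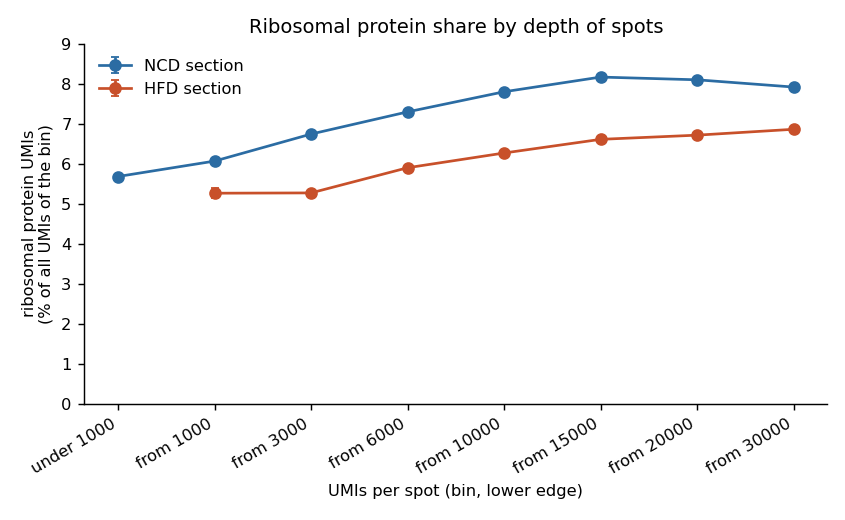
Ribosomal protein UMIs as a percentage of all UMIs (y axis) by bin of UMIs per spot (x axis, lower edge of the bin) in NCD and HFD, with 95% intervals that are mostly smaller than the points. The NCD line goes from 5.68% to a peak of 8.17% at 15000 to 20000 UMIs and ends at 7.92%, the HFD line goes from 5.26% to 6.87%, and the HFD line lies below in each bin that holds both.

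Rpl4 and Rpl5, long genes of the large subunit, had the reverse order in the NCD section. Rpl4, a core protein of the large subunit that lines the exit tunnel, had 2855 CPM in NCD spots under 1000 UMIs (95% interval 2690 to 3027), 1318 CPM in those of 1000 to 3000, 890 CPM in those of 3000 to 6000 and 600 CPM from 30000 up. In HFD it had 414 CPM (306 to 549) in spots of 1000 to 3000 UMIs and 581 CPM from 30000 up. The shallowest of these spots were thus highest in NCD and lowest in HFD. Rpl5 showed the same shape with a smaller range, from 1009 CPM under 1000 UMIs to 426 CPM from 30000 up in NCD, while in HFD it went from 354 to 443 CPM. Rpl3 and Rpl8, also of the large subunit, fell less in NCD, from 421 to 330 CPM and from 854 to 725 CPM. Over the bins their log2 ratios of HFD to NCD lay between -0.72 and -0.17 and between -0.68 and -0.17.

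Between the deeper and the shallower spots of NCD, split at the median, 38 of the 77 members were at least 25% higher in the deeper spots, where 4.11% of all genes were. The 2 members at least 20% lower were Rpl4 with -1.15 and Rpl5 with -0.53, where 21.7% of all genes were lower. Rps27 with 0.78 and Rps28 with 0.73 had the highest ratios. In HFD 0 members were at least 25% higher and 0 at least 20% lower, where 0.795% and 1.46% of all genes were, and the median of the members was 0.11. The ratio of HFD to NCD of Rpl4 therefore ran from -1.67 in spots of 1000 to 3000 UMIs to -0.05 from 30000 up, around a pooled value of -0.36, and that of Rpl5 from -0.86 to 0.06. With the same weight for each spot, Rpl4 and Rpl5 joined the members that departed, and Rpl38 left them.

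Spots of 1 section were compared at 3000 UMIs drawn from each, which left out 1585 spots of NCD and 56 of HFD. The median share of ribosomal protein mRNA was 7.40% in NCD, with 5% of spots below 5.53% and 5% above 9.49%. In HFD it was 6.40%, with limits of 4.90% and 8.10%, so the ranges of spots overlapped widely. The SD between spots was 1.33 percentage points in NCD and 1.07 in HFD, against 0.480 and 0.449 from counting alone. The part of the large subunit within the family, by contrast, varied hardly more than counting gives, with SDs of 3.39 and 3.28 percentage points in NCD and 3.66 and 3.53 in HFD.

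Lobule position made little difference to the family. Spots with at least 20 UMIs of 12 pericentral and 12 periportal hepatocyte genes were ordered by the pericentral part and divided into 5 zones with the same number of spots, which left 985 spots of NCD and 9 of HFD unplaced. Genes not used for the order followed it. The pericentral check genes, with the glutamine synthetase gene Glul, had 155 CPM in the periportal and 2835 CPM in the pericentral zone of NCD and 121 and 1696 CPM in HFD. The periportal check genes, with Hal and Arg1, had 5285 and 2134 CPM in NCD and 4405 and 2225 CPM in HFD. From the periportal to the pericentral zone, ribosomal protein mRNA had 73724, 78425, 78668, 76581 and 77377 CPM in NCD and 67615, 66430, 66219, 64262 and 66545 CPM in HFD. NCD was above HFD in each zone.

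**Figure D4:**
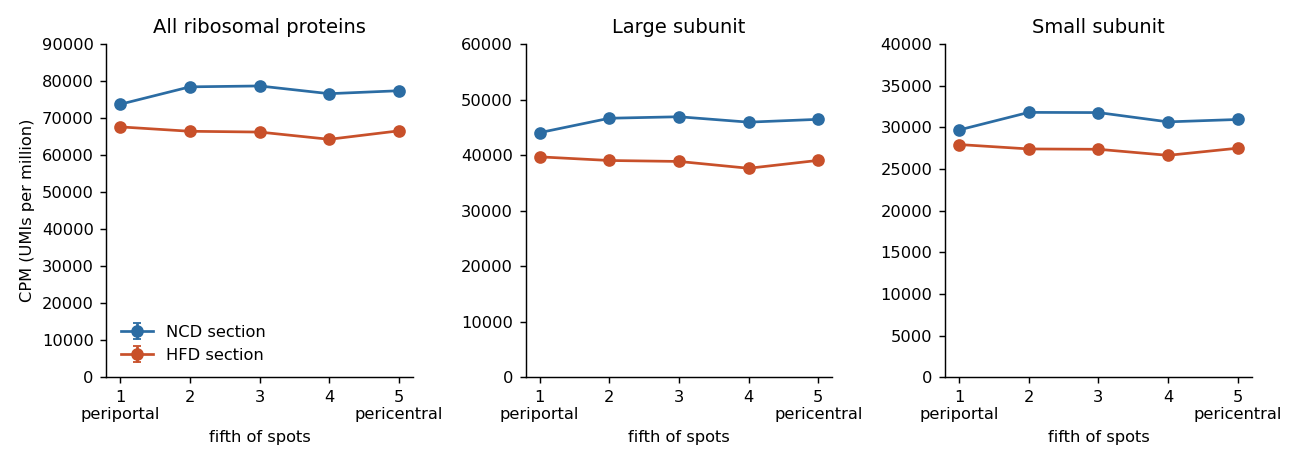
CPM of all ribosomal proteins, of the large and of the small subunit (y axes from 0) over 5 zones of spots from periportal to pericentral (x axes) in NCD and HFD, with 95% intervals smaller than the points. All lines are nearly flat, the lowest NCD value, 73724 CPM, is in the periportal zone and the lowest HFD value, 64262 CPM, is next to the pericentral zone.

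The ratio of the periportal to the pericentral zone was -0.070 on the log2 scale in NCD (-0.076 to -0.063) and 0.023 in HFD (0.019 to 0.027). Each direction turned under other processing. Without the mitochondrial and the 20 most abundant other genes NCD was at 0.069, and HFD was at -0.021 within bins of depth and at -0.018 without the tenth of spots richest in markers of other cell types. Mitochondrial genes took 9.62% of UMIs in the periportal and 7.05% in the pericentral zone of NCD, and 5.97% and 5.10% in HFD. The large subunit had -0.076 and the small subunit -0.060 in NCD, a difference of -0.017 (-0.030 to -0.0035), and both had 0.023 in HFD.

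Single members ranged more widely than their sum, from -0.33 to 0.16 in NCD and from -0.18 to 0.24 in HFD on the log2 scale. Their median was -0.069 in NCD and 0.021 in HFD, above that of all genes with enough UMIs, -0.17 and -0.12. By their intervals 41 members were lower and 6 higher in the periportal zone of NCD, and 13 were lower and 31 higher in that of HFD. All genes were not counted by this measure, and small shifts clear 0 at the counts of the members. In NCD 0 members were at least 25% higher in the periportal zone, where 6.56% of all genes were, and 1 was at least 20% lower, where 29.4% were. In HFD 0 members were at least 25% higher and 0 at least 20% lower, where 6.69% and 20% of all genes were. The intervals of 13 members lay on opposite sides of 0 in the sections, where 4.49% of the 3940 genes with enough UMIs in both did. Members have more UMIs than most genes, and so narrower intervals. Among the lowest in NCD were Rps25 and Rplp1 with -0.27 each, and the highest were Rpsa with 0.16, Rpl4 with 0.13 and Rps3 with 0.12. In HFD the lowest were Rps19 with -0.18 and Rps27l with -0.17, and the highest Rpl13a with 0.24, Rps27a with 0.19 and Rpl3 with 0.18. Rps19 and Rps27l were higher in the pericentral zone in both sections, with -0.19 and -0.21 in NCD, and Rpsa was higher in the periportal zone in both, with 0.17 in HFD.

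Ribosomal protein mRNA was highest where markers of stellate cells and smooth muscle were. Among spots with at least 3000 UMIs, the 5% richest in these 9 markers, among them Col1a1, Acta2 and Des, had 93721 CPM against 77183 CPM in the rest of NCD, a log2 ratio of 0.28 (0.271 to 0.289), and 84501 against 65520 CPM in HFD, a ratio of 0.37 (0.362 to 0.373). These were 105 spots of NCD and 177 of HFD, with median depths of 8159 and 16689 UMIs against 9958 and 18862 in the rest. Spots richest in lymphoid markers came next in NCD with 0.19, against 0.10 in HFD. Spots richest in macrophage markers had -0.06 and 0.15, spots richest in epithelial markers 0.061 and 0.14, in endothelial markers -0.11 and -0.028, and in hepatocyte markers -0.20 and -0.15. The ratio of large to small subunit was lower in the stellate and muscle spots, with 1.42 against 1.48 in NCD and 1.40 against 1.42 in HFD.

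Nearly all members were higher in these spots. Of the 77, 70 were above 0 by their interval in NCD and 76 in HFD, a measure not counted over all genes. At least 25% higher were 28 in NCD, where 28.2% of all genes were, and 43 in HFD, where 18.5% were. Medians were 0.27 and 0.34, against 0.08 and 0.03 for all genes. Rps4x with 0.56 was the highest in NCD and Rpsa with 0.66 in HFD, where in NCD it was at 0.52. The exception was Rps27l, which was lower in these spots in both sections, with -0.33 (-0.451 to -0.214) in NCD and -0.19 (-0.253 to -0.136) in HFD. It was the only member whose interval lay below 0 in either section. At least 20% lower were 1 member in NCD, Rps27l, where 13.8% of all genes were, and 0 in HFD, where 11.1% were. Stellate and muscle markers as a list had 86.0 CPM in NCD and 264 CPM in HFD over all spots, while the family was lower there, and the part of these cells in the difference between the sections was not tested.

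**Figure D5:**
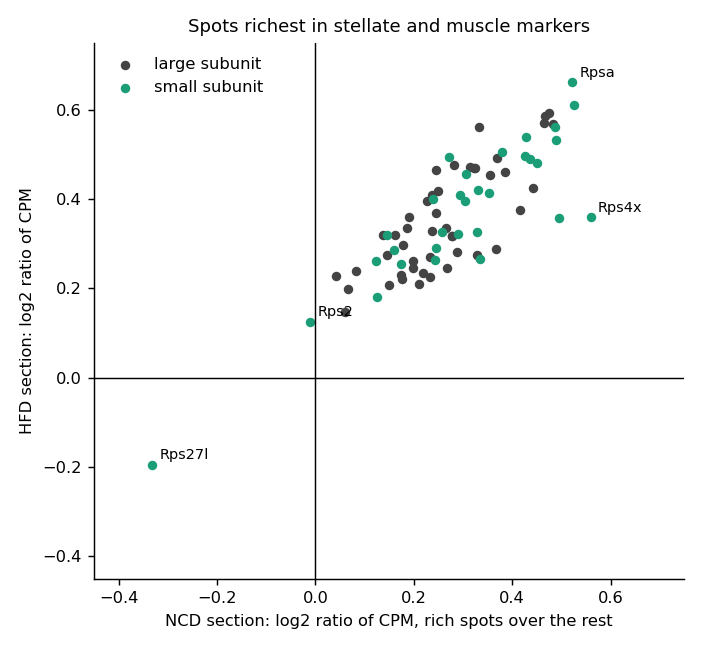
Log2 ratio of CPM, the 5% of spots richest in stellate and muscle markers over the rest, in NCD (x axis) and HFD (y axis), 1 point per member, coloured by subunit. Points run together in the upper right, with Rpsa at 0.52 and 0.66, and Rps27l stands alone at -0.33 and -0.19.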

How the data were processed

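The values are UMI counts, deposited by the authors without normalization, for all spots of each array and for those over tissue. Space Ranger 1.3.1 is named in the header of the tables over tissue and Cell Ranger 4 in that of all spots. The build is mm10 per the submitters' processing notes, and the annotation is not given in the sources used here. Images, spot positions and the single-cell data were not used here.

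UMIs were summed over spots and divided by all UMIs of those spots (CPM). Ratios have exact conditional binomial 95% intervals, sums exact Poisson intervals, and the difference of log2 ratios of subunits one from the Poisson variance of the 4 sums. Single genes needed 1000 UMIs over both sections, or 200 between zones of the lobule, and a gene was counted as higher from 25% above and as lower from 20% below. A departing member had its whole interval over 0.5 log2 from the members' median. Bins needed 20 spots. Spots were drawn down with seed 1. The genes named are members at 0, the 3 most abundant, the 5 highest and 5 lowest ratios, the 3 highest and lowest between zones, members with known paralogs or roles outside the ribosome, and genes of the lists. Others (Fau, Rack1, Rps3a1, Rpl22l1, and Rpl3, Rpl4, Rpl8, Rps27 and Rps28 by depth) were singled out after their values were seen. Some values of single genes are not reported here. All members and lists were chosen with earlier results of these data known. Lengths are coding lengths from GENCODE M21, which held 80 of 80 members, and promoter windows are from RefSeq.

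Alternatives changed the weighting of spots, depth, genes in the total, spots off tissue, minimum counts and the placing of spots, and 3 of them, the median gene as the scale, the omission of the departing members and that of spots rich in red blood cell markers, were chosen after seeing the data. Intervals and the drawing down of spots were tested on simulated counts. Scripts ran under Python 3.11.15 with matplotlib 3.10.9, pandas 2.3.3, scipy 1.17.1 and numpy 2.4.6.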

Additional observations from a re-analysis of the deposited data

Results flagged for a closer look

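The ratio of the periportal to the pericentral zone had opposite signs in the sections for the family as a whole, with a difference of HFD minus NCD of 0.093 on the log2 scale. The same held for 13 of 77 single members whose intervals lay on opposite sides of 0, as did those of 4.49% of the 3940 genes with enough UMIs in both sections, and among these members the differences were largest for Rplp1 (0.33), Rps15a (0.33), Rpl13a (0.31), Rpl10a (0.25) and Rps21 (0.24). In NCD all 5 were higher in the pericentral and in HFD in the periportal zone, for example Rps15a with 647 CPM periportal and 765 CPM pericentral in NCD, and 730 and 689 CPM in HFD. With 1 section per diet these differences were not tested. The median over all genes with enough UMIs was -0.17 in NCD and -0.12 in HFD, below the members' medians of -0.069 and 0.021. Against that median the family as a whole lay on the periportal side in both sections, so its opposite signs hold for CPM only. Rpl13a, Rpl10a and Rps21 also lay on the periportal side of it in both sections. Rplp1 and Rps15a did not, with -0.27 and -0.24 in NCD, below the median there, and 0.066 and 0.083 in HFD, above it.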

How the results depend on the processing

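The ribosomal protein share, HFD against NCD, was negative under each of 12 alternatives. It was -0.064 with the mean of spots, -0.097 at 300 UMIs per spot and -0.20 at 3000. In spots with at least 1000 UMIs it was -0.21, as it was without the 1% deepest spots. It was -0.25 without mitochondrial genes and -0.22 without those and the 20 most abundant other genes. Within bins of depth it was -0.28, and with spots off tissue subtracted -0.61. With all spots on or off tissue that had at least 1000 UMIs it was -0.17. It was -0.40 relative to the median gene and -0.20 without the spots richest in red blood cell markers. The large against small subunit difference was -0.13 with the mean of spots, -0.12 at 300 UMIs and -0.077 within bins. It was -0.096 with spots off tissue subtracted and -0.010 without the departing members. With all spots on or off tissue that had at least 1000 UMIs it was -0.062. Members at least 25% higher numbered 9 with the mean of spots, 7 at 300 UMIs, 1 without mitochondrial genes, 1 within bins, 1 with spots off tissue subtracted and 0 relative to the median gene. Members at least 20% lower numbered 9, 13, 52 and 45 with the mean of spots, at 300 UMIs, with spots off tissue subtracted and relative to the median gene. Departing members numbered 4 to 5. The cause of these shifts was not tested.

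The periportal to pericentral ratio of NCD was -0.036 with 3 zones, -0.040 at 3000 UMIs, -0.022 with the mean of spots, -0.029 without mitochondrial genes, 0.069 without those and the 20 most abundant other genes, -0.080 without the spots rich in other cell types and -0.026 within bins. In HFD it was 0.038 with 3 zones, 0.037 at 3000 UMIs, 0.045 with the mean of spots, 0.036 without mitochondrial genes, 0.081 without those and the 20 most abundant, -0.018 without the spots rich in other cell types and -0.021 within bins. With spots off tissue subtracted, Rpl10 was at -0.32 and Rpl17 at -0.0079. No paired analysis was possible because each group has 1 section. At 3000 UMIs per spot, 1585 spots of NCD and 56 of HFD were left out for lack of depth.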
